A study of Mus musculus with 16 samples.

Results

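Pairs of genomic bins whose contacts passed the score threshold in neural progenitor cells (NPCs) and in no embryonic stem (ES) cell library are described here, across 6 loci of the mouse genome. The members were chosen by their deposited interaction scores. A member, called an NPC-specific pixel below, is a pair of 4 kb bins with a score of 26 or more in both NPC libraries and below 26 in all 4 ES libraries. The rule was met by 610 of the 5762 bin pairs in the authors' classified table. That table held 3942 looping pixels and 1820 background pixels. All 610 belonged to the authors' own NPC only class of 712 pixels, and each of the other 102 pixels of that class had at least 1 ES score of 26 or more, up to 39.8. Over all 191831 bin pairs scored in the 6 libraries, 5379 (2.8%) met the same rule. How the authors chose 5762 of these pairs for the classified table was not given in the sources used here.

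Contacts were measured by 5C, in which ligation products between HindIII fragments are amplified with forward and reverse primers across chosen loci. V6.5 ES cells, a male line from a 129SvJae x C57BL/6 cross, were kept in 2i medium (LIF with a pair of kinase inhibitors and no serum) or in medium with serum and LIF, with 2 libraries each. NPCs came from whole brains of mice of the same cross at postnatal day 1, carrying Sox2-eGFP, were expanded as neurospheres and were then plated at 60000 cells per cm2, with 2 libraries. Cells of the same source were plated at 20000 cells per cm2 and given siRNA. There were 2 libraries with siRNA against YY1 (20 nM for 78 h) and 2 with control siRNA by their titles, although their growth text names YY1 siRNA. These covered the Sox2 and Klf4 loci only and were made by an in situ protocol. CTCF binding was mapped by ChIP-seq in 1 library for each of the 3 untreated states. Every ES library came from 1 line and every NPC library from cultures of whole brain with a reporter allele that ES cells lacked in the labels, so cell state, source and genotype cannot be told apart. Expression was not analysed here, so neither the level of YY1 after siRNA nor markers of the cell types were checked.

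In mammalian nuclei a loop is commonly formed when cohesin extrudes DNA until it meets CTCF, a zinc-finger protein bound at both ends. Other loops join enhancers to promoters, and at these YY1, another zinc-finger protein, can bind at both anchors. Sox2 is a transcription factor of both pluripotent cells and neural progenitors. Olig1 and Olig2 are basic helix-loop-helix factors of neural progenitors and the oligodendrocyte lineage, and Nestin is an intermediate filament protein of neural progenitors. Oct4, Nanog and Klf4 are factors of the pluripotent state.

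In the classified table, the 3 loci named for genes of neural progenitors held 438 of the 610 NPC-specific pixels. Over all scored bin pairs the same 3 loci held 2858 of the 5379 pairs that met the rule. Of the 191831 scored bin pairs, 29563 were at Sox2, 37358 at Olig1-Olig2 and 26441 at Nestin. The Sox2 locus (chr3:34108880-35104879 of mm9, as are all coordinates here) held 197 NPC-specific pixels, which was 6.66 for every 1000 scored bin pairs. The Olig1-Olig2 locus held 160, or 4.28 per 1000, and the Nestin locus held 81, or 3.06 per 1000. Sox2 is a factor of pluripotent cells as well. At the other loci of pluripotency genes there were 59 pixels around Nanog (4.78 per 1000), 87 around Oct4 (1.35 per 1000) and 26 around Klf4 (1.26 per 1000). The gene desert, a control locus of 946 scored pairs, held 0. Density did not follow the kind of gene throughout, since the Nanog locus stood above Nestin and Olig1-Olig2. The range was also narrower before the authors' selection: over all scored bin pairs the rule was met by 35.2 per 1000 at Sox2, 33.7 at Nanog, 30.6 at Olig1-Olig2, 25.5 at Nestin, 25.2 at Oct4 and 23.2 at Klf4.

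Touching pixels were joined into clusters, because neighbouring 4 kb bins share reads and are no separate observations. There were 73 clusters, from a single pixel (5 clusters) to 50 pixels, with a median of 6, and 21 clusters of 10 or more held 368 of the pixels. Sox2 had 17 clusters, Olig1-Olig2 27, Oct4 11, Nestin 8, Klf4 6 and Nanog 4.

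**Figure D1:**
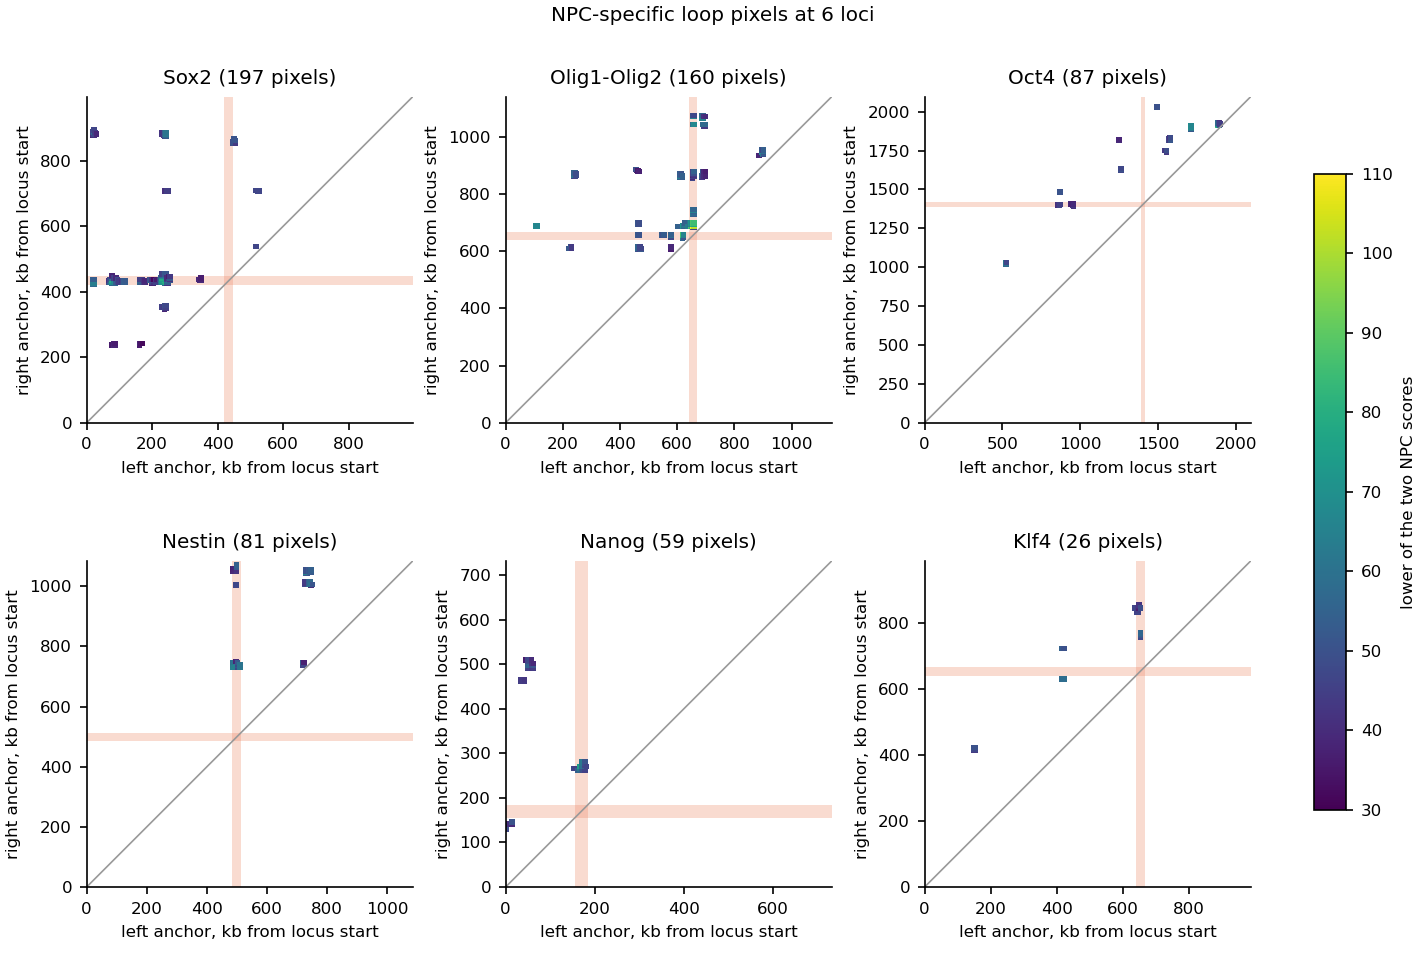
Each square is an NPC-specific pixel, with its left anchor on the x axis and its right anchor on the y axis, both in kb from the start of the locus. Colour gives the lower of its NPC scores, the grey line is the diagonal, and bands mark the 7 bins around the bin with most pixels. At Sox2 125 of 197 pixels and at Nestin 48 of 81 lie on the bands.

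A single stretch of DNA at the Sox2 locus was an anchor of most of that locus's pixels. The bin used most often, chr3:34540880-34544879, was an anchor of 33 pixels. The 7 bins around it, chr3:34528880-34556879, were an anchor of 125 pixels (63.5%), which fell into 9 clusters. The partners of 8 of these clusters lay to the left, from 84 to 420 kb away, and those of cluster 8 to the right at 408 and 412 kb. Stretches to the left were at 34328880-34364879 (42 pixels of cluster 1), 34172880-34208879 (33 pixels of cluster 2), 34300880-34324879 (17 pixels of cluster 3) and 34268880-34288879 (12 pixels of cluster 5).

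Sox2 cluster 1, the largest of all with 50 pixels, joined chr3:34328880-34364879 to chr3:34532880-34564879 over 176 to 224 kb. Its pixel with the highest lower NPC score paired the bins starting at 34344880 and 34540880, 196 kb apart. There the score was 3.90 and 8.03 in 2i, 6.69 and 6.90 in serum, and 83.1 and 81.3 in NPCs. Counts in the 16 kb windows around the pixel were 281 and 557 in 2i, 1203 and 1340 in serum, and 2252 and 2964 in NPCs. Divided by the count expected at that distance, these gave 1.05 and 1.497 in 2i, 1.56 and 1.62 in serum, and 8.16 and 8.67 in NPCs. Both NPC libraries were far above all 4 ES libraries on each scale that allows for depth.

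Sox2 cluster 2, with 34 pixels, reached farther, from chr3:34172880-34208879 to chr3:34532880-34560879 over 332 to 372 kb. At its leading pixel, 360 kb apart, ratios of observed to expected were 0.787 and 0.780 in 2i, 0.984 and 1.12 in serum, and 7.42 and 5.22 in NPCs. ES contacts there were near or below the expectation, and NPC contacts several times above it. The left stretches of clusters 1 and 2 were also paired with each other, in cluster 12 of 5 pixels between chr3:34184880-34196879 and chr3:34344880-34352879, so that 3 stretches of the Sox2 locus were joined in every pairing. The left stretch of cluster 1 had further partners to the right, at 34452880-34468879 (cluster 7, 9 pixels) and at 34980880-34996879 (cluster 4, 13 pixels). At the leading pixel of cluster 4, ratios were 3.82 and 3.67 in 2i, 3.08 and 3.01 in serum, and 9.06 and 8.18 in NPCs. This contact, 640 kb long, was thus above expectation in every untreated library and highest in NPCs.

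At Olig1-Olig2 the leading anchor was chr16:91266613-91270612, with 28 pixels. The 7 bins around it, chr16:91254613-91282612, were an anchor of 68 of 160 pixels (42.5%) in 9 clusters, and partners lay on both sides. The strongest pixels of the whole set were here: cluster 1, with 20 pixels, joined chr16:91254613-91274612 to chr16:91294613-91314612, and 8 of the 10 highest lower NPC scores were among its pixels. At its leading pixel, with bins starting at 91266613 and 91302613 and 36 kb apart, the score was 8.45 and 13.0 in 2i, 7.35 and 6.12 in serum, and 111.6 and 110.1 in NPCs. Counts were 504 and 614 in 2i, 1190 and 1242 in serum, and 10844 and 7642 in NPCs. Ratios of observed to expected were 0.504 and 0.533 in 2i, 0.541 and 0.551 in serum, and 10.3 and 5.34 in NPCs. The ES libraries were thus below the expectation at a distance where both NPC libraries were above it.

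Another of the 10 highest pixels was in Olig1-Olig2 cluster 9, on the other side of the same anchor (chr16:91230613-91238612, 7 pixels). At its leading pixel, 40 kb apart, ratios were 2.30 and 2.10 in 2i, 1.02 and 1.00 in serum, and 17.2 and 11.2 in NPCs. Here a 2i score was 25.96, the highest ES score of any member. Cluster 6, with 10 pixels to chr16:91342613-91362612, had ratios of 2.90 and 2.56 in 2i, 2.62 and 2.34 in serum, and 14.7 and 10.3 in NPCs at a distance of 88 kb. Contacts of both clusters were at or above expectation in ES cells and several times higher in NPCs.

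At Nestin, the 3 largest clusters shared stretches in part. The right stretches of clusters 2 and 3 overlapped only partly, and the right bins of their leading pixels started at 88329088 and 88353088. Cluster 1 (26 pixels) joined chr3:87769088-87789087 to chr3:88013088-88037087, cluster 2 (17 pixels) joined chr3:88013088-88033087 to chr3:88325088-88341087, and cluster 3 (15 pixels) joined chr3:87769088-87785087 to chr3:88333088-88357087. At the leading pixel of cluster 1, 248 kb apart, ratios were 0.393 and 0.489 in 2i, 0.674 and 0.706 in serum, and 3.61 and 2.72 in NPCs. At that of cluster 2, 316 kb apart, they were 1.35 and 1.32 in 2i, 1.74 and 1.39 in serum, and 3.18 and 3.54 in NPCs. At that of cluster 3, 572 kb apart, they were 1.60 and 1.52 in 2i, 0.849 and 0.536 in serum, and 3.32 and 3.14 in NPCs. NPC libraries were above all ES libraries at each of the 3 contacts.

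Members at the Nanog, Oct4 and Klf4 loci were less even. The 25 pixels of Nanog cluster 1 joined chr6:122341360-122373359 to chr6:122449360-122473359. Its leading pixel had scores of 87.0 and 75.0 in NPCs and 7.72 to 23.3 in the ES libraries, whereas ratios were 0.542 and 0.397 in 2i, 0.731 and 0.707 in serum, and 1.26 and 0.892 in NPCs. NPCs were highest by both measures, the ES states had opposite orders in them, and the contact itself was near the expectation in NPCs. Oct4 cluster 2, short contacts of 20 to 40 kb between chr17:36314392-36330391 and chr17:36338392-36358391, held the remaining pixel of the 10 highest, with counts of 582 and 543 in 2i, 127 and 211 in serum, and 1731 and 2388 in NPCs. The largest cluster at Oct4, cluster 1 with 16 pixels, had ratios of 0.611 and 0.584 in 2i, 0.556 and 0.624 in serum, and 0.748 and 0.559 in NPCs at its leading pixel. Those groups overlapped, although NPC scores there were 52.0 and 58.1 and ES scores 1.88 to 8.84. The most used bins at these loci served few pixels, 8 at Oct4 (chr17:35830392-35834391), 6 at Nanog and 5 at Klf4, the last pair tied with other bins. At Klf4, cluster 1 (7 pixels, chr4:55535979-55555978 to chr4:55743979-55755978) had ratios of 1.04 and 1.00 in 2i, 1.11 and 0.975 in serum, and 3.12 and 1.83 in NPCs.

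The score was the measure that chose the members, so its levels are given as a description only. Its median over the 610 pixels was 6.25 and 7.02 in 2i, 4.39 and 4.82 in serum, and 54.3 and 52.2 in NPCs. In the deposited tables the score equalled 10 times the negative log2 of the authors' p-value to within 0.0618, so that 26 is a p of 0.165 and 60 a p of 0.0156. Of all scored bin pairs, 14.9% to 15.9% reached 26 in any 1 library. The lowest lower NPC score of a member was 31.7, at a Sox2 pixel of bins starting at 34312880 and 34544880. The nearest pixels outside on the NPC side, all at Oct4, had lower NPC scores of 3.143, 3.045 and 2.987. The NPC threshold thus fell in a wide gap of the classified table. On the ES side the threshold ran through a continuous range, with 25.96, 25.94 and 25.42 as the highest ES scores just inside and 26.08, 26.13 and 26.37 just outside. The pixel with 26.08, at Sox2, joined the bin at 34540880 to the bin at 34124880, where NPC scores were at least 64.7. There were 69 members with an ES score of 20 or more, and 230 with all 4 ES scores below 10.

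The count ratio, from the same libraries, followed the score at most members but not at all. Its median was 0.898 and 0.942 in 2i, 0.849 and 0.872 in serum, and 2.85 and 2.68 in NPCs. Both NPC ratios were above all 4 ES ratios at 532 of 610 members (87.2%), where 20.9% of all scored bin pairs did the same. Since the rule used these libraries, nothing is read from that difference. The share ran from 97.5% at Sox2 and 96.3% at Nestin to 59.3% at Nanog. Both NPC ratios were above 1 at 489 members and below 1 at 93. At 12 members in 6 clusters the windows held 0 counts in both NPC libraries, among them the leading pixels of Klf4 cluster 2 and Oct4 cluster 3, so their deposited scores have no counts of their own under the windows used here. Medians by locus in NPCs were 3.88 and 3.84 at Sox2, 4.13 and 3.19 at Nestin, 2.52 and 2.26 at Olig1-Olig2, 1.75 and 1.99 at Nanog, 1.72 and 1.75 at Oct4, and 1.03 and 1.05 at Klf4.

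**Figure D2:**
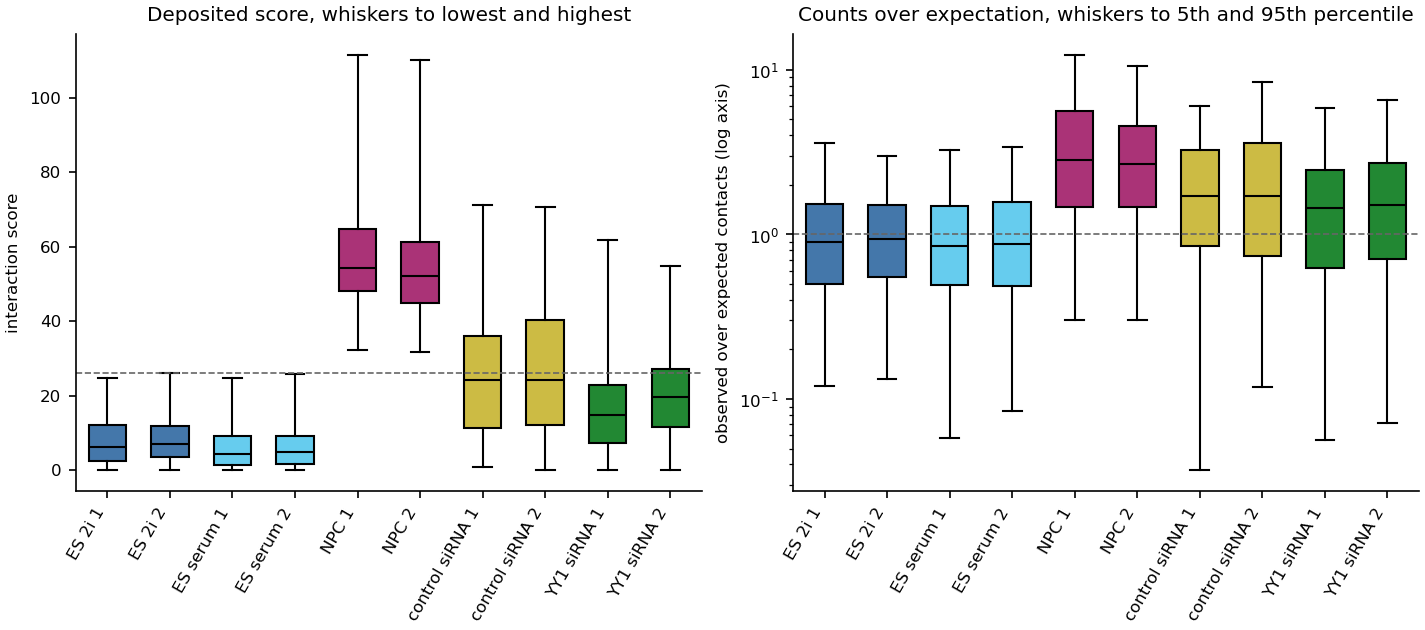
Boxes give the quartiles over the NPC-specific pixels in each library, with the deposited interaction score on the left (whiskers to the lowest and highest value, dashed line at 26) and observed over expected contacts on a log axis on the right (whiskers to the 5th and 95th percentile, dashed line at 1). The 6 untreated libraries hold 610 pixels each and the siRNA libraries the Sox2 and Klf4 pixels only. NPC medians of the ratio are 2.85 and 2.68, those of control siRNA 1.70 and 1.73, and those of YY1 siRNA 1.44 and 1.51.

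NPC-specific pixels spanned 20 to 872 kb, with a median of 240 kb and quartiles of 148 and 388 kb. Pixels scored 26 or more in all 6 libraries (1537) had a median of 88 kb, and those shared by both ES states alone (299) had 104 kb. Pixels specific to 2i (405), at 300 kb, lay beyond the NPC-specific ones. The median was also 300 kb over all scored bin pairs, and 136 kb over background pixels. More than 400 kb was spanned by 24.6% of NPC-specific pixels and 36.1% of all scored bin pairs. Of NPC-specific pixels 17.9% spanned 100 kb or less, against 59.0% of pixels in all 6 libraries and 16.7% of all scored bin pairs. The longest were at Sox2, with 872 kb between bins starting at 34124880 and 34996880, where scores were 46.6 in each NPC library and 0.441 to 10.8 in ES cells. The shortest, 5 pixels of 20 kb, included the bins starting at 34624880 and 34644880 at Sox2, with scores of 58.1 and 46.7 in NPCs and 6.73 to 16.3 in ES cells, although ratios there were 0.271 and 0.235 in NPCs and 0.150 to 0.265 in ES cells. Distances of pixels were not tested, because pixels of 1 cluster share their anchors and the rule chose them. By locus the median distance was 256 kb at Sox2, 158 kb at Olig1-Olig2, 272 kb at Nestin, 252 kb at Oct4, 132 kb at Nanog and 206 kb at Klf4.

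The members had 278 anchor bins among 1759 bins. Of these, 125 (45.0%) were also an anchor of a pixel present in all 6 libraries, which 40.0% of all bins were, and the 125 were 17.8% of the 703 anchors of such pixels. Anchors of 2i-specific pixels took in 38 (13.7%) of the members' anchors and 12.6% of all bins. Anchors of pixels shared by both ES states took in 17 (6.12%) of them and 10.4% of all bins. Anchors of pixels in all 6 libraries thus made up a slightly larger share of the members' anchors than of all bins. Those of pixels shared by both ES states made up a smaller share. Loci were pooled here, and 920 of the 1537 pixels in all 6 libraries were at Oct4, which held 87 members. These shares were not tested.

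Within the 4 kb anchor bins themselves, an NPC CTCF peak stood at an anchor of 31.97% of the NPC-specific pixels. Within 16 kb around the bins the share was 72.3%, beside 54.8% of all scored bin pairs, so it depends on the width taken. In the 4 kb bins an NPC peak overlapped 1 anchor of 28.7% and both anchors of 3.28% of the 610, and neither anchor of 68.0%. For 49.7% no list had a peak at either anchor, beside 58.9% of all scored bin pairs. For 18.4% an ES list had a peak where the NPC list had none, close to the 19.8% of all scored bin pairs. Among all scored bin pairs 21.3% had an NPC peak at an anchor, among background pixels 18.7%, and among pixels in all 6 libraries 37.0%, against 31.97% of the members. Pixels specific to 2i had an NPC peak in 15.6% and those shared by both ES states in 14.7%. With 1 ChIP library per state, and pixels of a cluster sharing anchors, these shares were not tested. A 2i peak stood at an anchor of 47.1% of members and a serum peak at 46.2%. Among all scored bin pairs these shares were 38.3% and 36.7%. The lists differ in length, with 56138 peaks in 2i, 50185 in serum and 28860 in NPCs. With the same number of strongest peaks taken from each list, the 2i share was 31.3% beside 31.97% for NPCs. Among all scored bin pairs the shares were then 24.4% for 2i and 21.3% for NPCs.

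The locus shares were unlike each other. At Sox2 36.0% of members had an NPC peak at an anchor, where 4.74% of the scored bin pairs of that locus and 1.92% of its pixels in all 6 libraries did. This rested on the shared stretch, since 64 of its 125 pixels (51.2%) had an NPC peak and 7 of the 72 others (9.72%) did. At Olig1-Olig2 29.4% of members had one, against 15.2% of scored bin pairs, and at Oct4 47.1% against 33.1%. At Nestin the share was 32.1% against 31.9%. At Nanog members were below their locus, with 11.9% against 21.4%, and at Klf4 11.5% stood against 6.52%. Pixels in all 6 libraries had higher shares than members at Nestin (40.6%), Nanog (39.1%) and Klf4 (30.0%), and lower ones at Olig1-Olig2 (25.9%) and Oct4 (40.2%), as at Sox2.

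**Figure D3:**
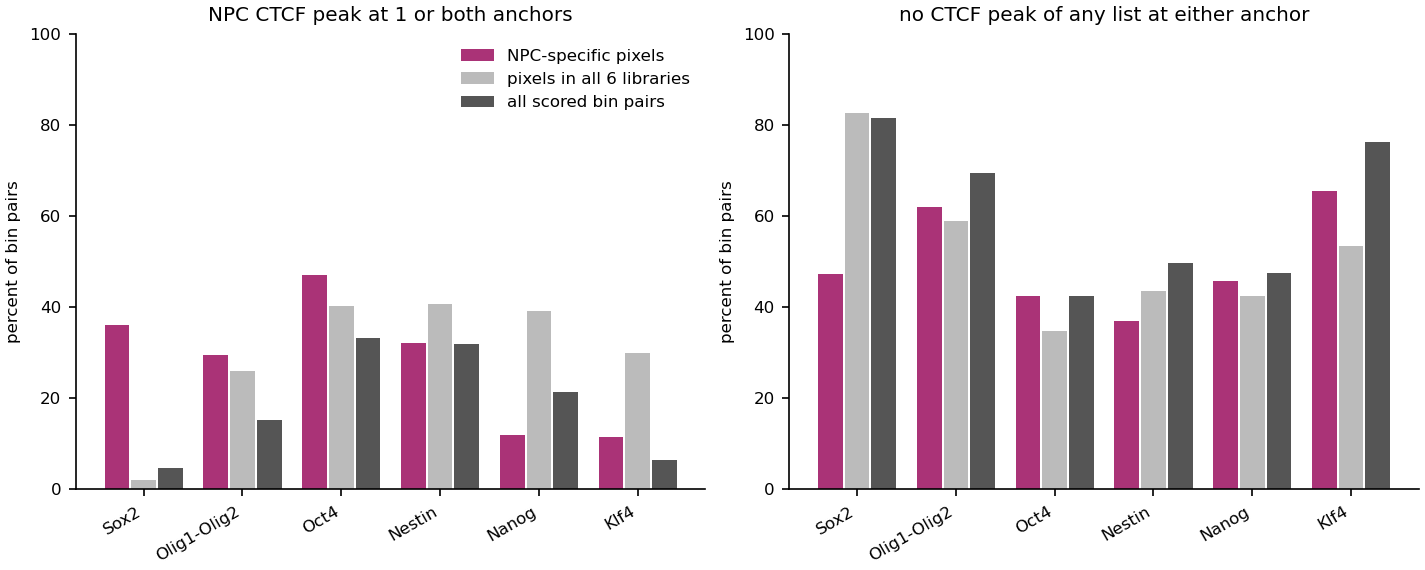
Bars give, for each locus, the percent of NPC-specific pixels, of pixels in all 6 libraries and of all scored bin pairs with an NPC CTCF peak at 1 or both anchors (left) and with no peak of any of the 3 lists at either anchor (right). The bars of NPC-specific pixels on the left run from 11.5% at Klf4 to 47.1% at Oct4, and Sox2 has the widest gap to its scored bin pairs, 36.0% against 4.74%.

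The most used bins of Sox2 and of Olig1-Olig2 held 0 peaks in each list, whereas the stretches of 7 bins around them differed. The Sox2 stretch held 3 sites present in all 3 lists, at chr3:34538147-34538574, chr3:34539668-34540130 and chr3:34546528-34546999. The authors' fold enrichment at these, a value within each list, was 36.7, 43.8 and 18.1 in 2i, 38.1, 47.4 and 34.9 in serum, and 13.0, 14.6 and 10.3 in NPCs. Another site there, chr3:34535887-34536217, was in the ES lists only. The left stretch of cluster 1 held 2 sites, both of ES lists only, and 22 members were anchored at that of chr3:34345570-34345853. The Olig1-Olig2 stretch held 0 peaks in each of the 3 lists, so none of its 68 pixels had a peak at that end. Its partner stretch in cluster 1 reached a site of all 3 lists, chr16:91314370-91314814, with 13 members of the locus anchored there and folds of 15.6 in 2i, 31.6 in serum and 32.6 in NPCs. At Nestin the stretch chr3:88013088-88037087 held 2 sites of ES lists only, of which chr3:88024895-88025094, called in 2i alone, had 25 members. That site lay across a border between bins, so members anchored in either bin were counted. The outer stretches of clusters 1, 2 and 3 held sites of all 3 lists.

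By cluster, 15 of 73 had an NPC peak in both anchor intervals, 30 in 1, and 28 in neither. Of these 28, 16 had no peak of any list, and 12 had an ES-only site. Intervals grow with the number of pixels, so larger clusters are more likely to take in a site.

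Few CTCF sites were in the NPC list alone. Of 429 sites in the 7 loci, 185 were in all 3 lists, 236 in ES lists only, 3 in the NPC list and 1 ES list, and 5 in the NPC list only. Members were anchored at 44 of the 185, 33 of the 236, 1 of the 3 and 2 of the 5. One of the latter was chr3:34186877-34187082, with an NPC fold of 13.9 and 8 members, inside the left stretch of Sox2 cluster 2 and of cluster 12. The other was chr4:55539380-55539535, with a fold of 15.1 and 1 member, inside the left stretch of Klf4 cluster 1. No further cluster held a site of the NPC list only.

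**Figure D4:**
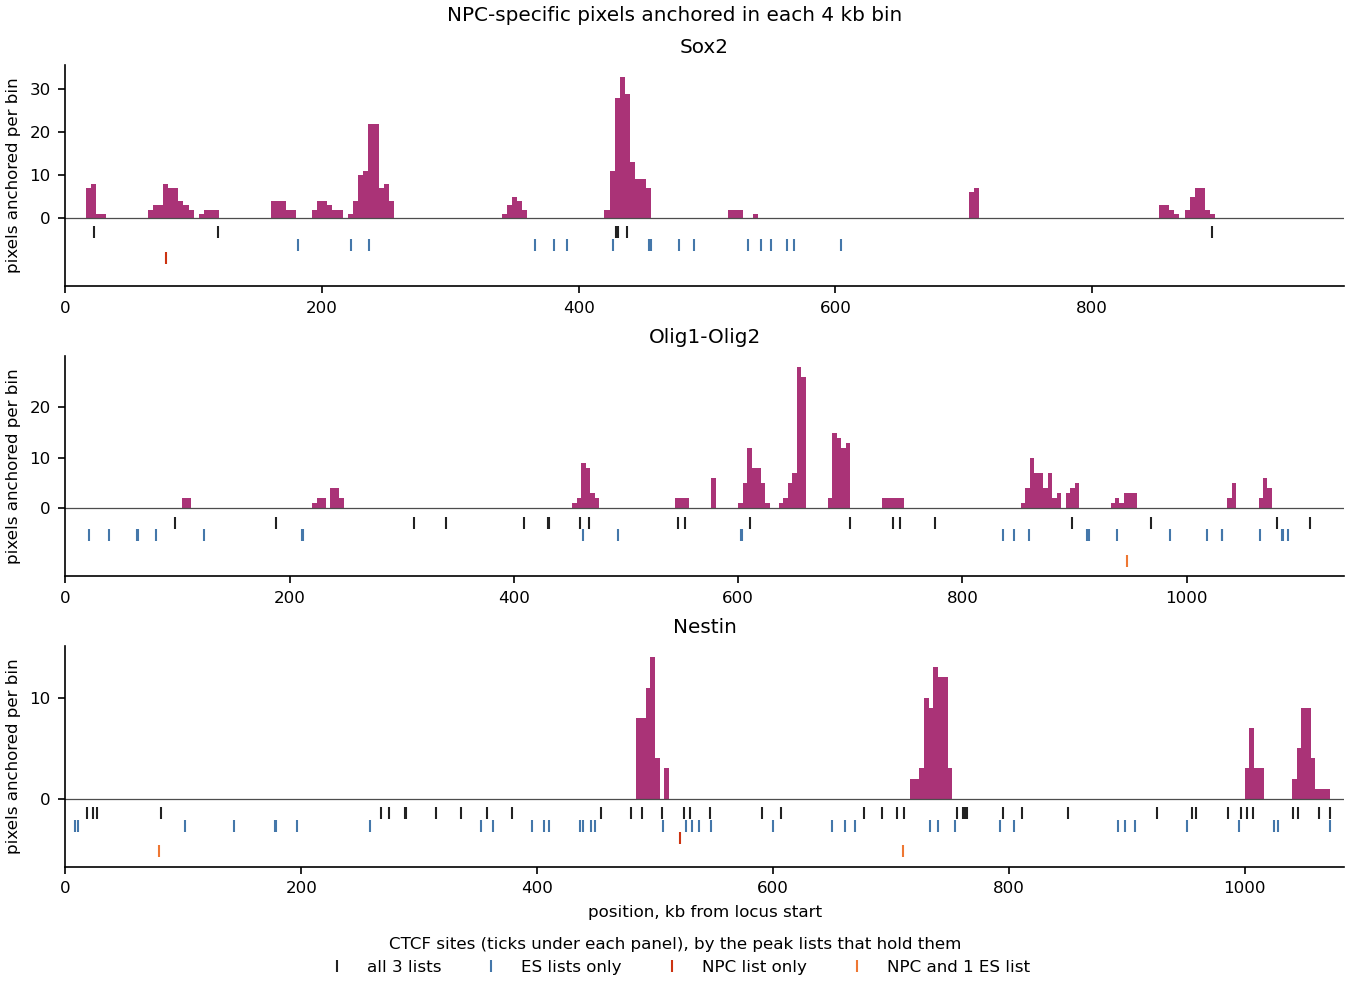
Bars count the NPC-specific pixels anchored in each 4 kb bin along the Sox2, Olig1-Olig2 and Nestin loci, by position in kb from the start of the locus. Ticks under each panel mark CTCF sites by the peak lists that hold them. The tallest bars of Sox2 (33 pixels) and of Olig1-Olig2 (28 pixels) are bins with 0 peaks in every list, with 3 sites of all 3 lists within the 7 bins around the first and 0 around the second.

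Which genes lie at these anchors was not analysed here, because no annotation or genome of mm9 was used. In gene order alone, from RefSeq's annotation of a later build, the protein-coding neighbours of Sox2 are Dnajc19 on one side and Atp11b on the other, those of Olig1 are Olig2 and Ifnar2, and those of the Nestin gene Nes are Crabp2 and Bcan.

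The siRNA libraries were NPC libraries that the rule did not use, so members could be looked at again in them, at the Sox2 and Klf4 loci. Of 223 members there, 220 were scored in all 4. A score of 26 or more in both control siRNA libraries was found at 85 of 220 (38.6%), and 6.51% of the 54368 bin pairs scored at both loci did the same. At Sox2 75 of 197 reached it where 6.29% of bin pairs did, and at Klf4 10 of 23 where 6.78% did. So most NPC-specific pixels did not pass the threshold in both libraries of control siRNA NPCs, and the share was above the background. Median scores were 24.2 and 23.4 there, and 54.3 and 52.2 over all members in untreated NPCs. Median count ratios of members with control siRNA were 1.99 and 2.00 at Sox2, but 0.665 and 0.418 at Klf4. The Klf4 members were thus below the expectation at the median, whatever their scores. Untreated and control siRNA cells differed in plating density, siRNA and ligation protocol, which cannot be told apart. Pixels shared by both ES states reached 26 in both control siRNA libraries at 66 of 159 (41.5%), and pixels in all 6 untreated libraries at 23 of 82 (28.0%). The loci differed. At Sox2 62 of 101 pixels shared by both ES states (61.4%) reached it, against 38.1% of members. At Klf4 4 of 58 (6.90%) did, against 43.5% of members. So pixels that were below the threshold in untreated NPCs reached it in control siRNA NPCs as well, and at Sox2 more often than members.

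With siRNA against YY1, 21 of the 220 members (9.55%) had a score of 26 or more in both libraries, where 5.39% of all bin pairs did, and 12 had it in all 4. At Sox2 the number was 21 of 197 (background 5.7%) and at Klf4 0 of 23 (background 5.01%). Median scores over the members were 14.9 and 19.7. Both control scores were above both YY1 scores at 93 members (42.3%), where 20.4% of all bin pairs did the same, and the reverse held at 27 members (12.3%), where 20.5% did. Other classes had the order of control above YY1 at 19.5% of 159 (both ES states), 14.5% of 207 (2i-specific) and 11.0% of 82 pixels (all 6 libraries). The differences between classes were not tested. Taken 1 library at a time, 101 and 102 members reached 26 with control siRNA, and 45 and 63 with YY1 siRNA, of which 85 and 21 were common to both libraries.

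The order of control and YY1 siRNA differed between clusters. Of 13 clusters of 6 or more pixels at these loci, 7 (126 pixels) had both control medians above both YY1 medians, 3 (40 pixels) had the reverse and 3 overlapped. Sox2 cluster 4 had medians of 43.7 and 48.1 with control siRNA and 19.3 and 22.2 with YY1 siRNA, and cluster 8 had 40.6 and 51.1 against 20.3 and 16.2. In both, the control medians were above the threshold and the YY1 medians below it. Count ratios at their leading pixels overlapped between the groups. For cluster 4 they were 2.39 and 2.90 against 2.85 and 2.45, and for cluster 8 they were 2.25 and 20.8 against 1.54 and 7.50. Sox2 cluster 1 had median scores of 20.7 and 26.5 against 11.5 and 14.7. Ratios at its leading pixel were 3.58 and 2.21 against 1.14 and 1.71. Klf4 cluster 2, also among the 7, had 0 counts in every siRNA library at its leading pixel. Sox2 cluster 6, the longest contacts, had the reverse order of scores, with 10.1 and 7.79 under control siRNA and 26.7 and 27.2 under YY1 siRNA. In Sox2 cluster 2, with 33.7 and 32.6 against 18.9 and 30.5, YY1 library 2 was near the control libraries.

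**Figure D5:**
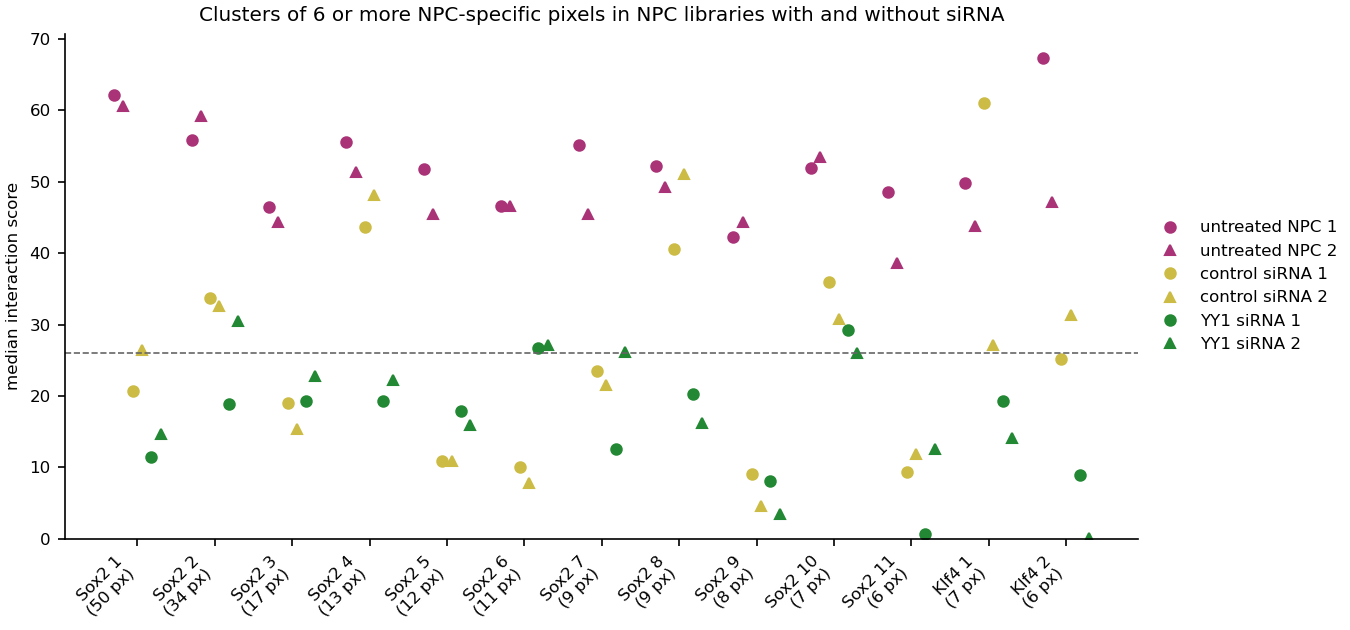
Points give the median interaction score of each cluster of 6 or more NPC-specific pixels at Sox2 and Klf4 in the 2 untreated NPC libraries, the 2 control siRNA and the 2 YY1 siRNA libraries (circles are replicate 1, triangles replicate 2), and the dashed line is at 26. In 7 of 13 clusters both control points are above both YY1 points.

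In the count test no member window pair passed the threshold for YY1 siRNA against control siRNA. Counts were summed over separate pairs of 16 kb windows and tested with edgeR's quasi-likelihood test, after removing a distance trend from each library. Of 3624 pairs 0 passed an adjusted p of 0.05 (0.0%), and 339 (9.35%) had an unadjusted p below 0.05. The test had limited power. In simulated counts it recovered 25 of 100 changes with a log2 fold change of 1 and 74 of 98 with 2. A pair without a call is thus not shown to be unchanged. Members fell in 59 window pairs, of which 55 passed the count filter. Of these 0 were called, 6 had an unadjusted p below 0.05, and the median log2 fold change was 0.03, beside 0.07 over all pairs. The sign of the members' median was not stable: it was -0.13 with windows centred on each bin (141 of 217 negative, with 0.06 over all pairs), and over all alternatives it ran from -0.15 (without YY1 library 1) to 0.10 (without control library 2). DESeq2 called 20 of the 3624 pairs (0.552%) and 0 with a member. The smallest edgeR p of a member window pair was at the Sox2 windows starting at 34332880 and 34540880, which hold 15 pixels. Counts there were 4818 and 3590 with control siRNA and 1869 and 5417 with YY1 siRNA, with a log2 fold change of -0.68 (SE 0.213, edgeR adjusted p = 0.43). The next, with windows starting at 34188880 and 34524880 and 6 pixels, had counts of 5502 and 6239 against 2919 and 9099, with -0.50 (SE 0.169, edgeR adjusted p = 0.45). The raw counts of the groups overlapped at both, but they are not scaled for depth, as the fold changes are. YY1 library 2, the higher YY1 count at both, had a total of 12993781 counts. The other siRNA libraries had totals of 4419309 to 6251316.

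The window pair starting at 34556880 and 34956880, with 6 pixels of Sox2 cluster 8, depended on single libraries. Its counts were 1112 and 9323 with control siRNA and 601 and 7236 with YY1 siRNA, so library 2 was far higher in both groups. The log2 fold change was -1.26 (SE 0.77, edgeR adjusted p = 0.662). With a replicate block it was -0.95 (SE 0.248, edgeR adjusted p = 0.497). Without control library 1 it was -2.09 (edgeR adjusted p = 0.025), and without control library 2 it was 0.92 (edgeR adjusted p = 0.555). It was chosen for the text after its values were seen.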

How the data were processed

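Groups came from sample titles. For control siRNA the title was followed, although the growth text names YY1 siRNA. The members and lists were chosen with earlier results of these data known.

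Deposited 5C files hold the authors' raw counts of reads per primer pair. Per the submitters' processing notes Bowtie and mm9 were used, without a version or filters. The authors' deposited interaction scores are per pair of 4 kb bins and library, with their p-value beside them, and came with distances. The scale of the score was read from these columns. A further 35 per-sample columns were not used. MACS2 called the deposited CTCF peaks, 1 library per list, per the submitters' processing notes, with the authors' fold enrichment (a ratio) and −log10 q for each peak. Input libraries were not used here.

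Within each locus, counts of forward with reverse primers were summed over 16 kb windows around each 4 kb bin, placing a fragment by its midpoint. Observed over expected is the count plus 0.5 over the median count of all bin pairs of that distance, locus and library plus 0.5. Library totals were 11784821 to 26533530 counts in the untreated libraries. Peaks and sites overlapped an anchor or each other by at least 1 bp. YY1 siRNA was tested with edgeR 4.0.16 in R 4.3.3 on separate window pairs of the 4 siRNA libraries (filterByExpr, loess trend on distance with span 0.5 as offset, Benjamini-Hochberg), with a common biological coefficient of variation of 0.382. Separate cultures are not named in the labels, and p-values then cover only the spread of these libraries, which may be technical. Alternatives were DESeq2 1.42.0, plain TMM scaling, other windows, filters, thresholds, expectations and peak sets, and leaving out each library. The edgeR steps were tested on simulated data, where 7 of 106 calls were false. Python 3.11.15, pandas 2.3.3, scipy 1.17.1 and matplotlib 3.10.9 were used.

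Named pixels and clusters were, per locus, the cluster with most members and the most used bin, and over all loci the 10 members with the highest lower NPC score, the longest and shortest member, the 3 on either side of the threshold, the clusters with a CTCF site of the NPC list only and the 2 member window pairs with the smallest p. Further clusters were named after their values were seen, for sharing an anchor with these.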

Additional observations from a re-analysis of the deposited data

How the results depend on the processing

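For the number of member window pairs called between YY1 and control siRNA, leaving out 1 library gave 0 to 1, the 1 without control library 1, and the other alternatives gave 0. The replicate block gave 0 calls too. Replicate numbers do not pair the siRNA libraries in the labels. Deviations of same-numbered libraries correlated at 0.0487 over window pairs. That value does not settle whether same-numbered libraries share a culture or batch. The number of members was 541 to 650 under other thresholds. It was 541 with a threshold of 20, and also 541 when only the ES threshold was lowered to 20. With 16 kb around the anchor bins an NPC CTCF peak stood at an anchor of 72.3% of members (54.8% of all scored pairs). A 2i peak stood at 86.2% (76.9% of all scored pairs). The same number of strongest peaks per list gave 31.3% for 2i (24.4% of all scored pairs). The median log2 difference of observed over expected between NPCs and ES cells was 1.55, and was 1.74 with an expectation over all loci together, 1.43 with a mean expectation, and 1.49 to 1.64 on leaving out 1 library. In the siRNA libraries the median log2 ratio was 0.78 (control) and 0.56 (YY1), 0.26 and 0.062 with a mean expectation, and 0.57 and 0.36 with counts per primer pair, an alternative chosen after seeing the data. Members at 26 or more in both YY1 libraries numbered 21, and 45 to 63 in a single library. Thresholds of 20 and 30, also chosen after seeing the data, gave 55 and 12, beside 113 and 66 for control siRNA. The cause of these shifts was not tested. Counting depth, 2 libraries per group and shared reads between neighbouring bins limit all of these values.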
